A study of Rattus norvegicus with 71 samples.

Results

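Among 43 coronal brain slices of postnatal day 2 (PND2) rats sequenced as the second series of a study of maternal autoantibodies, 5 carried Hoxb7 mRNA at 0.5 CPM or more and 38 did not. CPM is the count of a gene scaled by the total of its library to the usual common size. The 5 slices were chosen by this measured level alone, which is therefore not a result and is left out of what follows. The lowest level inside the set was 1.13 CPM (28 counts) and the highest outside it was 0.200 CPM (6 counts), so thresholds of 0.25 and 1 CPM selected the same 5 libraries. The whole study holds 71 libraries, and the 28 of its first series lie outside the rule and are given as values only.

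All animals were wild-type Sprague-Dawley pups, taken at PND2 from 27 litters of 1 dam each. Dams had received Freund's adjuvant before pregnancy, either with saline (control) or with peptides of the antigens CRMP1+CRMP2, CRMP1+GDA, STIP1+NSE or LDHA/B+CRMP1+STIP1, so that control and exposed pups alike came from adjuvant-treated dams. The second series had 12 control, 8 CRMP1+CRMP2, 6 CRMP1+GDA, 8 STIP1+NSE and 9 LDHA/B+CRMP1+STIP1 slices. Each library came from 1 slice of 1 brain, cut between fixed positions of a slicing matrix to take in the hippocampus with the cortex and deeper structures beside it.

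The Hoxb7-positive slices were 2 of the 6 CRMP1+GDA slices and 3 of the 9 second-series LDHA/B+CRMP1+STIP1 slices. None of the 12 controls, 8 CRMP1+CRMP2 or 8 STIP1+NSE slices was among them, and whether this share differed between exposures was not tested. CRMP1+GDA replicate 4 was female and replicate 5 male, LDHA/B+CRMP1+STIP1 replicate 4 was female, and LDHA/B+CRMP1+STIP1 replicates 5 (male) and 6 (female) were littermates, so the 5 animals represent 4 litters. Values of the 5 libraries are given below in this order: CRMP1+GDA replicates 4 and 5, then LDHA/B+CRMP1+STIP1 replicates 4, 5 and 6.

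The Hox genes encode homeodomain transcription factors that lie in 4 clusters and are numbered by paralog group. Their order along each cluster follows the order of their expression along the head-to-tail axis, a rule known as collinearity. Low-numbered groups begin in the hindbrain, higher-numbered groups begin progressively further back in the spinal cord, and the forebrain and midbrain normally lack Hox expression. Neurons of the hindbrain and spinal cord are also known for glycine as an inhibitory transmitter, which the transporter encoded by Slc6a5 (GlyT2) returns to glycinergic terminals.

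Total counts were 24880182 to 33410373 in the Hoxb7-positive libraries and 25818198 to 36234952 in the others, so depth did not separate them. The thalamic marker Tcf7l2 lay between 403 and 589 CPM in the 5 slices and between 11.04 and 675 CPM in the other 38. These levels lay within those of the other slices, but Tcf7l2 was higher in the positive slice of 3 of 3 litters (589 against 511, 442 against 307 and 506 against 319 CPM). The choroid plexus gene Ttr was lower in each (243 against 315, 1410 against 2323 and 606 against 1254 CPM), and the part of either in the calls was not tested. The library of LDHA/B+CRMP1+STIP1 replicate 6 stood apart in other ways: genes in parts of chromosomes 1 and 2 were shifted together, and Phox2a was high in this library alone. Counts of called genes are given with and without it.

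RefSeq promoter sequences of 300 bases around the transcription start are shown for Hoxa6 and Hoxa2, members of the Hox set described below, and for Slc6a5, the transmitter gene that moved with them. The sequences are from GRCr8 (Hoxa6 at chr4:82639414-82639713, minus strand, Hoxa2 at chr4:82595643-82595942, minus strand, and Slc6a5 at chr1:108781303-108781602, plus strand), a later assembly than the rn7 used for the counts. Capitals mark matches to TGATNNAT, a composite motif of Pbx and Hox proteins, searched on both strands.
Hoxa6: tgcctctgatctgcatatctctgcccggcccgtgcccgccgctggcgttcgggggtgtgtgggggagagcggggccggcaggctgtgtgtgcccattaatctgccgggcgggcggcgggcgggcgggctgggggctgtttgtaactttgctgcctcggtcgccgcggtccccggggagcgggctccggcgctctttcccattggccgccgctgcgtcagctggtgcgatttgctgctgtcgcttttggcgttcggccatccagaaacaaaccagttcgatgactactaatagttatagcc
Hoxa2: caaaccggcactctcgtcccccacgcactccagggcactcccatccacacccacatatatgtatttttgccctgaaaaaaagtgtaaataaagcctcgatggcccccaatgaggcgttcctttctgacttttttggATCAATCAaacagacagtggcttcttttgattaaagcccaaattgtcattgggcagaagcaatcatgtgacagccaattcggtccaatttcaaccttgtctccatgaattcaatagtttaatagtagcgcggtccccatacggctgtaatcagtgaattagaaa
Slc6a5: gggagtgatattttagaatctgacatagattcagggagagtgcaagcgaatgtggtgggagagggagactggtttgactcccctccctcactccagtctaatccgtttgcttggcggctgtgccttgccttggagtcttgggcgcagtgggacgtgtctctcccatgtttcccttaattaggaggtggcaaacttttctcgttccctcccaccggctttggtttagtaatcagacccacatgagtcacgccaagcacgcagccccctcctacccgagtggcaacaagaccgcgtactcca
The motif was present in the Hoxa2 sequence and in neither of the other sequences. Among all 33469 promoters of this length, 9.10% held it, against 1 of the 23 promoters listed for 22 of the 31 genes called higher below (4.35%). A match is a string of letters and not a binding site.

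Hoxb8 (chr10:81248887-81250638 in rn7, plus strand), the neighbour of the selecting gene in the HoxB cluster, was the gene that set the Hoxb7-positive slices apart most fully. It measured 12.5, 5.81, 7.11, 9.67 and 6.95 CPM (counts of 350, 194, 177, 282 and 205), whereas the other 38 slices ranged from 0 to 1.51 CPM with a median of 0. No value overlapped between the groups. Of 12737 genes tested, Hoxb8 alone was above all other slices in all 5 (0.00785%), and no gene was below all other slices in all 5 (0%). Because Hoxb8 shares its cluster with the gene that chose the slices, this is a description and not a test.

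The Hox genes of paralog groups 1 to 5, those of the hindbrain and upper cervical cord, were present in all 5 slices but varied widely. The summed level of the 13 genes measured was 205.6, 25.95, 16.3, 38.2 and 154.9 CPM. CRMP1+GDA replicate 4 and LDHA/B+CRMP1+STIP1 replicate 6 were thus far above the other 3. The other 38 slices had a median of 0.202 CPM, yet reached 113.8 CPM.

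Hoxa5, one of the most abundant members, illustrates this spread. It measured 55.6, 9.79, 6.75, 14.95 and 34.8 CPM in the 5 slices, against a median of 0 and a highest value of 27.6 CPM in the others. Only 2 of the 38 others exceeded the lowest of the 5, so the groups overlapped through few slices. Hoxb5 measured 49.4, 3.08, 2.81, 6.41 and 38.02 CPM, and Hoxc4 measured 19.4, 4.13, 0.965, 5.11 and 17.6 CPM, with the same pair of slices highest. The highest values outside the set were 27.5 and 12.7 CPM.

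Members of each cluster were represented. Hoxa3 measured 12.7, 1.17, 1.13, 1.098 and 8.07 CPM, Hoxb3 measured 11, 1.80, 1.77, 2.71 and 9.16 CPM, and Hoxd3 measured 15.6, 1.41, 0.643, 1.85 and 13.3 CPM. These 3 genes of 3 clusters kept the same order of high and low slices, apart from small changes among the 3 lower ones. Hoxa4, Hoxb4 and Hoxd4 reached 14.2, 11.04 and 7.09 CPM in CRMP1+GDA replicate 4 and were at 0.643, 0.723 and 0.322 CPM in LDHA/B+CRMP1+STIP1 replicate 4. Hoxa2, the most anterior member with appreciable counts, measured 5.88, 0.658, 0.482, 0.515 and 3.46 CPM, whereas Hoxd1 did not exceed 0.407 CPM in any of the 5. The annotated span of Hoxa3 contains those of Hoxa4, Hoxa5 and Hoxa6, so reads from shared exons cannot be assigned to 1 of them with certainty.

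The step beyond paralog group 5 differed between genes. Hoxa6 measured 3.55, 0.838, 0.362, 0.755 and 1.22 CPM, with a highest value of 1.01 CPM elsewhere, and Hoxc5 measured 3.08, 1.92, 0, 0.823 and 1.83 CPM, with a highest value of 1.73 CPM elsewhere. Hoxa7 stayed at or below 0.824 CPM (CRMP1+GDA replicate 4). Hoxc8 had no count in any of the 5 slices, although Hoxb8 of the same paralog group was present in each. Among the 5, Hoxb9 and Hoxd9 were counted in CRMP1+GDA replicate 5 only, at 0.180 and 0.0599 CPM (6 and 2 counts). Hoxd9 also had 2 counts in 1 other second-series slice (0.0775 CPM) and in 1 first-series slice (0.0616 CPM). The 9 genes of groups 10 to 13 had no count in any of the 5, and their highest count in any of the 71 libraries was 4. Zero counts here mean that a level above about 3 counts in a library of this depth was not detected.

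**Figure D1:**
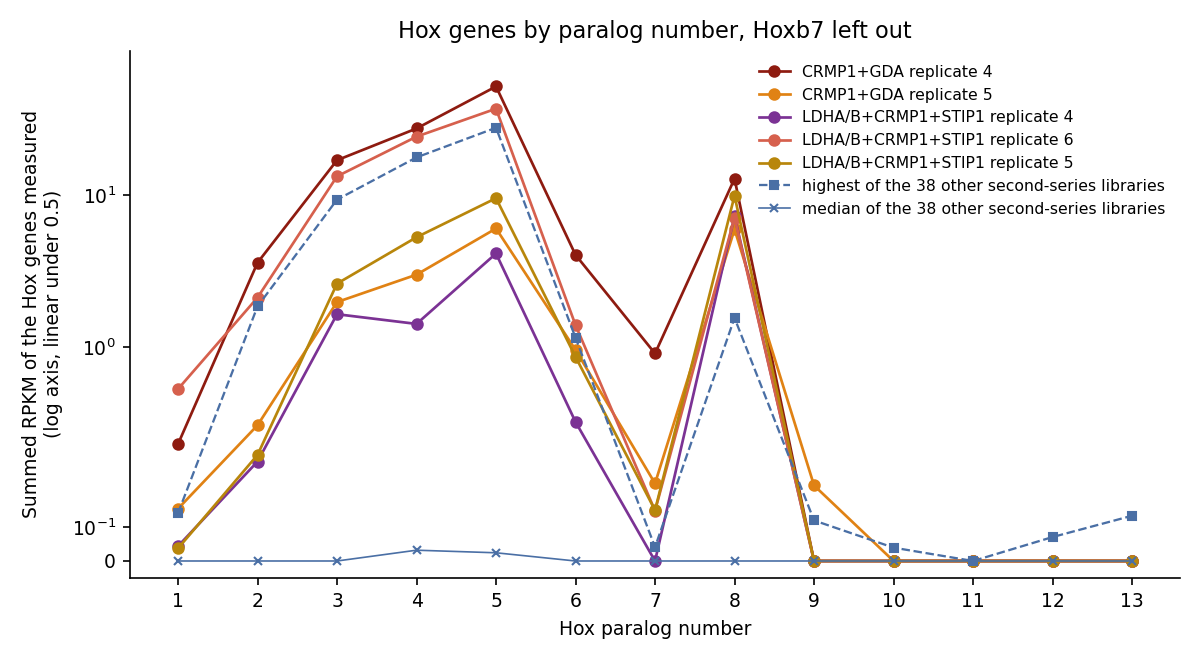
Summed level of the Hox genes measured in each paralog group, per length (CPM per kilobase of exon, RPKM, on a log axis that is linear under 0.5), by paralog number, with Hoxb7 left out. Coloured lines are the 5 Hoxb7-positive slices, and blue lines are the highest and the median of the 38 other second-series slices. The 5 slices spread between 4.14 and 52.3 RPKM at group 5 but lie together between 5.97 and 12.9 RPKM at group 8, where the highest other slice is at 1.55 RPKM. In the 5 slices group 8 is Hoxb8 alone, the neighbour of the selecting gene.

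Per length, the 5 slices were unalike at group 5 and alike at group 8. In these 5 slices group 8 was Hoxb8 alone, the neighbour of the gene that chose them, so the likeness is a description. Group 6 (Hoxa6) spanned 0.413 to 4.05 RPKM, and group 7 (Hoxa7) 0 to 0.906 RPKM. The summed level of Hoxa5, Hoxb5 and Hoxc5 was 52.3, 6.05, 4.14, 9.58 and 37.3 RPKM. The summed level of Hoxb8 and Hoxc8 was 12.9, 5.97, 7.31, 9.94 and 7.15 RPKM. Group 8 therefore exceeded group 5 in LDHA/B+CRMP1+STIP1 replicates 4 and 5, and was well below it in the pair of slices with the most Hox RNA. Set against the summed CPM of groups 1 to 5, which does not contain it, Hoxb8 amounted to 6.10%, 22.4%, 43.6%, 25.3% and 4.49%.

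The label of Hox-positive RNA does not separate these slices from all others, because 5 of the 38 other slices also held 5 CPM or more of groups 1 to 5. They were CRMP1+CRMP2 replicates 5 (113.8 CPM) and 4 (54.9 CPM), STIP1+NSE replicate 3 (23.4 CPM), control replicate 11 (8.25 CPM) and CRMP1+GDA replicate 2 (5.42 CPM). Of these, 3 exceeded the lowest Hoxb7-positive slice. Their Hoxb8 levels were 1.51, 0, 0.936, 0 and 0.965 CPM, each below that of any of the 5, including in the 3 slices whose anterior Hox RNA exceeded that of the lowest positive slice. Set against groups 1 to 5, this was 1.33%, 0%, 4.00%, 0% and 17.8%, the last above the ratio of 2 of the 5 positive slices. The slices are therefore called Hoxb7-positive here, and not Hox-positive.

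**Figure D2:**
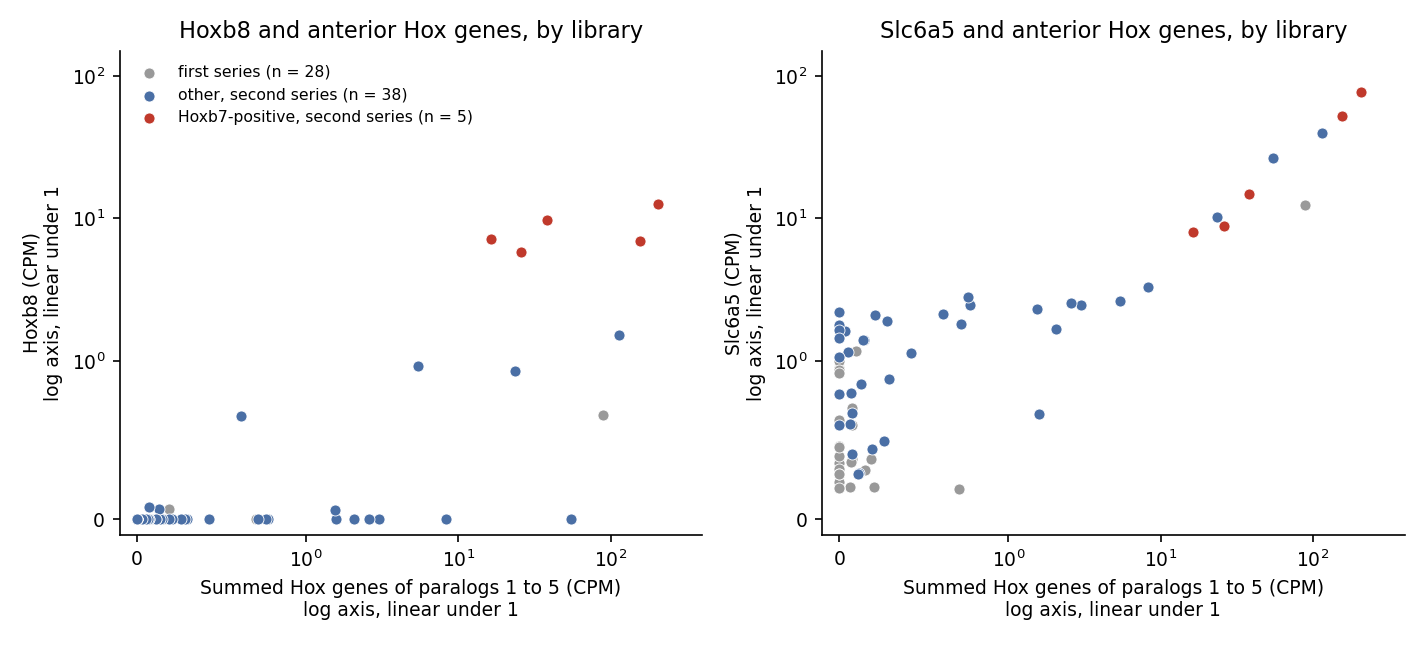
Hoxb8 (left) and Slc6a5 (right) in CPM against the summed CPM of Hox paralog groups 1 to 5, 1 point for each of the 71 libraries (log axes, linear under 1). The 5 Hoxb7-positive slices (red) lie above 5 CPM of Hoxb8, whereas all other slices lie at 1.51 CPM or below. For Slc6a5 the red points lie among the blue points of other slices with similar anterior Hox RNA.

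Within litters, Hoxb7-positive slices could be set beside a slice from the same dam in 3 of the 4 litters. Hoxb8 was 12.5 against 0 CPM, 5.81 against 0.0562 CPM and 7.11 against 0 CPM. Hoxa5 was 55.6 against 0 CPM, 9.79 against 0.112 CPM and 6.75 against 0.630 CPM. The littermates thus held nearly none of the Hox RNA seen in the positive slice of the same litter, whereas in the fourth litter both sequenced pups were positive.

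Outside the Hox genes, the comparison asks which other genes came with Hoxb7. In edgeR's quasi-likelihood fit with sex as a covariate, at an adjusted p below 0.1, 31 of 12737 genes were higher in the 5 Hoxb7-positive slices (0.243%) and 1 was lower (0.00785%). Of the 31, 13 were the Hox genes that passed the expression filter, and 18 were other genes. Of the 13 Hox genes, 10 passed the filter in the other slices alone, whereas Hoxb8, Hoxa6 and Hoxc5 passed it only through the Hoxb7-positive slices and so had to differ. Without adjustment, 386 genes were higher and 269 lower at a p below 0.05. The slices were selected on a measured gene, so the calls describe how the 2 sets of slices differ and test no exposure. In bulk tissue, fewer cells of a type and less RNA per cell cannot be told apart.

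These calls rested on CRMP1+GDA replicate 4 and LDHA/B+CRMP1+STIP1 replicate 6, the slices with the most anterior Hox RNA. Without both, in a fit added after seeing the data, 1 gene was called higher (Hoxb8) and none lower, with 98 and 75 genes at an unadjusted p below 0.05. Without CRMP1+GDA replicate 4 alone, 22 were higher, and without LDHA/B+CRMP1+STIP1 replicate 6 alone, 21 were higher and none lower, with 251 genes lower at an unadjusted p below 0.05. Hoxb8 was in the fit only through the positive slices, so its call there is no support. All 18 non-Hox genes kept a positive fold change without the pair.

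The calls also depended on how litter entered the model. With litter as a random effect, 35 genes were higher and 1 lower. With litter and sex as fixed terms, a fit added after seeing the data in which 3 litters set a positive slice beside another, edgeR called no gene in either direction, although 715 genes were higher and 680 were lower before adjustment (p below 0.05). The litter of LDHA/B+CRMP1+STIP1 replicates 5 and 6 adds no such comparison, because both its slices were positive. No non-Hox gene called changed sign in the fixed-term fit. Log2 fold changes there were 2.48 for Drgx, 3.53 for Slc6a5, 1.24 for Dbh and 0.70 for Sncg (2.45, 4.22, 2.41 and 1.47 in the main fit). With so few litters, the lost calls do not show that a difference within litters was absent.

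Slc6a5 (chr1:99645389-99697016 in rn7, plus strand), named as a marker together with Hoxb7 and Hoxb8, measured 77.0, 8.89, 8.08, 14.9 and 52.3 CPM. The other slices ranged from 0.285 through a median of 1.54 to 39.9 CPM, and 3 of them exceeded the lowest positive slice. The log2 fold change was 4.22 ± 0.64 (SE, edgeR adjusted p = 0.000126, n = 5 and 38), and it was 1.76 without the pair of slices richest in Hox RNA (adjusted p = 0.9996). Slc6a5 was higher in the positive slice of each of the 3 litters, at 77.0 against 0.408 CPM, 8.89 against 2.30 CPM and 8.08 against 1.68 CPM.

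Slc6a5 followed the anterior Hox genes more closely than it followed Hoxb8. Set against the summed CPM of groups 1 to 5, it amounted to 37.4%, 34.3%, 49.5%, 39.0% and 33.7% in the 5 slices. In the 5 other second-series slices with such RNA the ratio was 35.01%, 48.0%, 43.9%, 40.3% and 48.5%. In saline control replicate 2 of the first series it was 13.9%. Within the second series the ranges of the ratio overlap, so Slc6a5 at a given level of anterior Hox RNA did not mark the Hoxb7-positive slices. These ratios are a description over 10 slices that differ in depth and exposure.

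Transcription factors of hindbrain and spinal interneurons were called higher in 4 of the 30 tested members of their list, and none was called lower. Over all genes tested, 0.243% were called higher. The list's median log2 fold change was 0.45, beside -0.0046 over all genes tested, and 14 members were higher and 1 lower at an unadjusted p below 0.05. Lbx1 (chr1:244083873-244085690, minus strand), which specifies dorsal interneurons, measured 6.38, 0.599, 1.29, 0.583 and 3.87 CPM. The other slices had a median of 0 and a highest value of 3.13 CPM, and the log2 fold change was 6.43 ± 1.03 (adjusted p = 0.000196). Its 4 overlapping slices outside the set all held anterior Hox RNA.

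Drgx (chr16:7854849-7884404, plus strand), a homeodomain factor of dorsal horn and sensory neurons, was the least overlapping of the 18. It measured 7.02, 1.62, 2.45, 2.88 and 3.49 CPM against a range of 0.0369 to 3.10 CPM and a median of 0.612 CPM, with 1 other slice above the lowest positive one. The log2 fold change was 2.45 ± 0.36 (adjusted p = 5.45e-05), and 1.73 without the pair of slices. That other slice was CRMP1+CRMP2 replicate 5, the one with the most Hox RNA outside the set.

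Pax2, a factor of inhibitory interneurons, measured 8.20, 1.14, 1.45, 0.686 and 6.95 CPM against a median of 0.0760 and a highest value of 6.30 CPM. Pax8, its paralog, measured 3.08, 0.539, 0.482, 0.549 and 1.66 CPM against a median of 0.0922 and a highest value of 1.87 CPM. Both were called higher (log2 fold changes of 4.31 ± 0.86 and 3.16 ± 0.68, adjusted p of 0.00479 and 0.0138). In CRMP1+GDA replicate 4 and LDHA/B+CRMP1+STIP1 replicate 6 both genes were high, and in the remaining 3 slices they overlapped the others. Pax8 in LDHA/B+CRMP1+STIP1 replicate 6 was also below the highest other slice. Without CRMP1+GDA replicate 4 neither was called, and without LDHA/B+CRMP1+STIP1 replicate 6 Pax8 was not called (edgeR adjusted p = 0.1038).

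Other factors of the list were uneven. Skor1, a corepressor of dorsal horn neurons, measured 10.5, 1.68, 2.69, 1.303 and 7.43 CPM against a median of 0.780 CPM (adjusted p = 0.287), and Lmx1b measured 10.9, 1.29, 2.93, 1.20 and 6.31 CPM against a median of 0.300 CPM (adjusted p = 0.839). Neither passed the threshold. Mnx1, a motor neuron factor, was at or below 0.161 CPM in all 5.

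Hox cofactors and retinoic acid genes had no called member, in either direction (0 of 9 and 0 of 12 tested, with 2 and none at an unadjusted p below 0.05). Meis1, a partner of Hox proteins on DNA, measured 24.6, 15.8, 13.3, 15.6 and 24.6 CPM against a range of 3.93 to 27.4 CPM and a median of 11.8 CPM (log2 fold change of 0.72 ± 0.20, adjusted p = 0.282). Every one of the 5 was above the median of the others, inside their range. Meis2 lay between 139 and 169 CPM, with a median of 135 CPM elsewhere. Aldh1a2, which makes retinoic acid, lay between 5.06 and 39.9 CPM, with a median of 22.6 CPM elsewhere.

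Of the glycinergic list, Slc6a5 was the 1 member of 8 called higher, beside 0.243% of all genes tested. At an unadjusted p below 0.05, 5 of the 8 were higher and none lower, beside 386 higher of all 12737 genes. The list's median log2 fold change was 0.25. The glycine receptor subunit gene Glra1 measured 5.09, 1.23, 1.29, 1.098 and 3.60 CPM against a median of 0.635 and a highest value of 2.95 CPM (log2 fold change of 1.66 ± 0.48, adjusted p = 0.377). Slc6a9, the glial glycine transporter, lay between 78.5 and 107 CPM against 56.6 to 96.1 CPM (adjusted p = 0.321). Slc32a1, which loads both GABA and glycine into vesicles, lay between 127 and 150 CPM, within the range of 53.8 to 182 CPM elsewhere.

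Among genes of motor and sensory neurons, Prph and Calca were called higher. Prph, which encodes the intermediate filament peripherin, measured 24.8, 12.5, 13.6, 15.7 and 44.5 CPM against a range of 7.87 to 16.7 CPM and a median of 10.9 CPM. Its log2 fold change was 0.96 ± 0.15 (adjusted p = 0.000138) and 0.33 without the pair of slices highest in Hox RNA. Calca, the gene of calcitonin gene-related peptide, measured 1.93, 1.44, 0.764, 2.37 and 3.73 CPM against 0.0554 to 1.36 CPM (log2 fold change of 1.63 ± 0.30, adjusted p = 0.00171), and was not called without LDHA/B+CRMP1+STIP1 replicate 6 (adjusted p = 0.156).

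The defining genes of cholinergic motor neurons did not pass the test. Chat, which makes acetylcholine, measured 1.76, 0.359, 0.723, 1.17 and 1.83 CPM against a median of 0.646 CPM, and Slc18a3, its vesicular transporter, lay between 3.09 and 11.02 CPM against 0.693 to 9.56 CPM. Of the sensory ganglion list, Prph, Calca and Drgx were called higher (3 of 12 tested), beside 0.243% of all genes tested. The list's median log2 fold change was 0.35, and 4 members were higher and none lower at an unadjusted p below 0.05. Its other members were not called. Avil lay between 7.17 and 17.8 CPM against 3.11 to 14.7 CPM, and the pain receptor gene Trpv1 between 0.778 and 1.68 CPM against 0.337 to 1.77 CPM. The summed level of the ganglion list was 76.3 to 160 CPM in the 5 and 46.0 to 136 CPM in the others, and its part in the calls was not tested.

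Monoaminergic neurons of the brainstem were represented by 1 call. Dbh, which makes noradrenaline, measured 3.22, 0.359, 0.482, 0.206 and 3.09 CPM against a range of 0.0358 to 1.15 CPM and a median of 0.228 CPM (log2 fold change of 2.41 ± 0.45, adjusted p = 0.00159). With litter as a random effect it was 1.58 (adjusted p = 0.335) and was not called, nor was it without CRMP1+GDA replicate 4 (adjusted p = 0.140) or LDHA/B+CRMP1+STIP1 replicate 6 (adjusted p = 0.123). The fold change came down to 0.19 without both, and 1 of the remaining 3 was below the median of the others. Tph2, which makes serotonin in the raphe, measured 7.17, 1.53, 0.723, 0.480 and 9.60 CPM, but reached 13.7 CPM elsewhere and was not called (adjusted p = 0.144). The serotonin transporter gene Slc6a4 lay between 16.01 and 26.3 CPM, within the range of 0.885 to 38.4 CPM elsewhere.

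Genes of myelinating oligodendrocytes formed the other group with 4 calls, of 20 tested, at a list median of 0.13. Over all genes tested the median was -0.0046, and 0.243% were called higher. Mbp, the myelin basic protein gene, measured 122, 66.2, 52.1, 103 and 83.0 CPM against a range of 34.2 to 106 CPM and a median of 49.8 CPM (log2 fold change of 0.77 ± 0.13, adjusted p = 0.000667). It was above the median of the other slices in all 5, and the highest level elsewhere was in CRMP1+CRMP2 replicate 4, which also held anterior Hox RNA. Within the 3 litters with a positive and another slice, Mbp was 122 against 34.2, 66.2 against 60.3 and 52.1 against 51.7 CPM. The difference was thus large in 1 litter and small in the others. Mbp was not called within the exposure groups that held a Hoxb7-positive slice (edgeR adjusted p = 0.1455).

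The order of the slices in myelin genes was not that of the Hox genes. LDHA/B+CRMP1+STIP1 replicate 5, which had 38.2 CPM of anterior Hox RNA, ranked second in Mbp and Mobp, ahead of replicate 6 with 154.9 CPM. Mobp, expressed late in myelination, measured 5.63, 1.32, 0.442, 3.26 and 1.66 CPM against a median of 0.0738 and a highest value of 3.00 CPM (log2 fold change of 3.80 ± 0.65, adjusted p = 0.000481). Within litters, Mobp was 5.63 against 0.0743, 1.32 against 0.112 and 0.442 against 0.420 CPM (11 and 12 counts in the last). Enpp6, a marker of newly forming oligodendrocytes, measured 2.69, 1.02, 0.965, 0.892 and 1.09 CPM against a median of 0.535 and a highest value of 1.26 CPM (log2 fold change of 1.15 ± 0.27, adjusted p = 0.0505), and was not called without CRMP1+GDA replicate 4 or without LDHA/B+CRMP1+STIP1 replicate 6.

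Other genes of the lineage named here were not called. Mag measured 17.2, 7.69, 8.28, 14.3 and 13.9 CPM against a range of 2.47 to 12.2 CPM and was not called (adjusted p = 0.282). Sox10 and Mog, present throughout the lineage and in mature cells respectively, lay between 27.7 and 36.15 CPM and between 31.9 and 38.5 CPM, within the ranges of 20.04 to 41.6 CPM and 26.97 to 43.8 CPM elsewhere. None of the 9 Schwann cell genes tested was called.

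**Figure D3:**
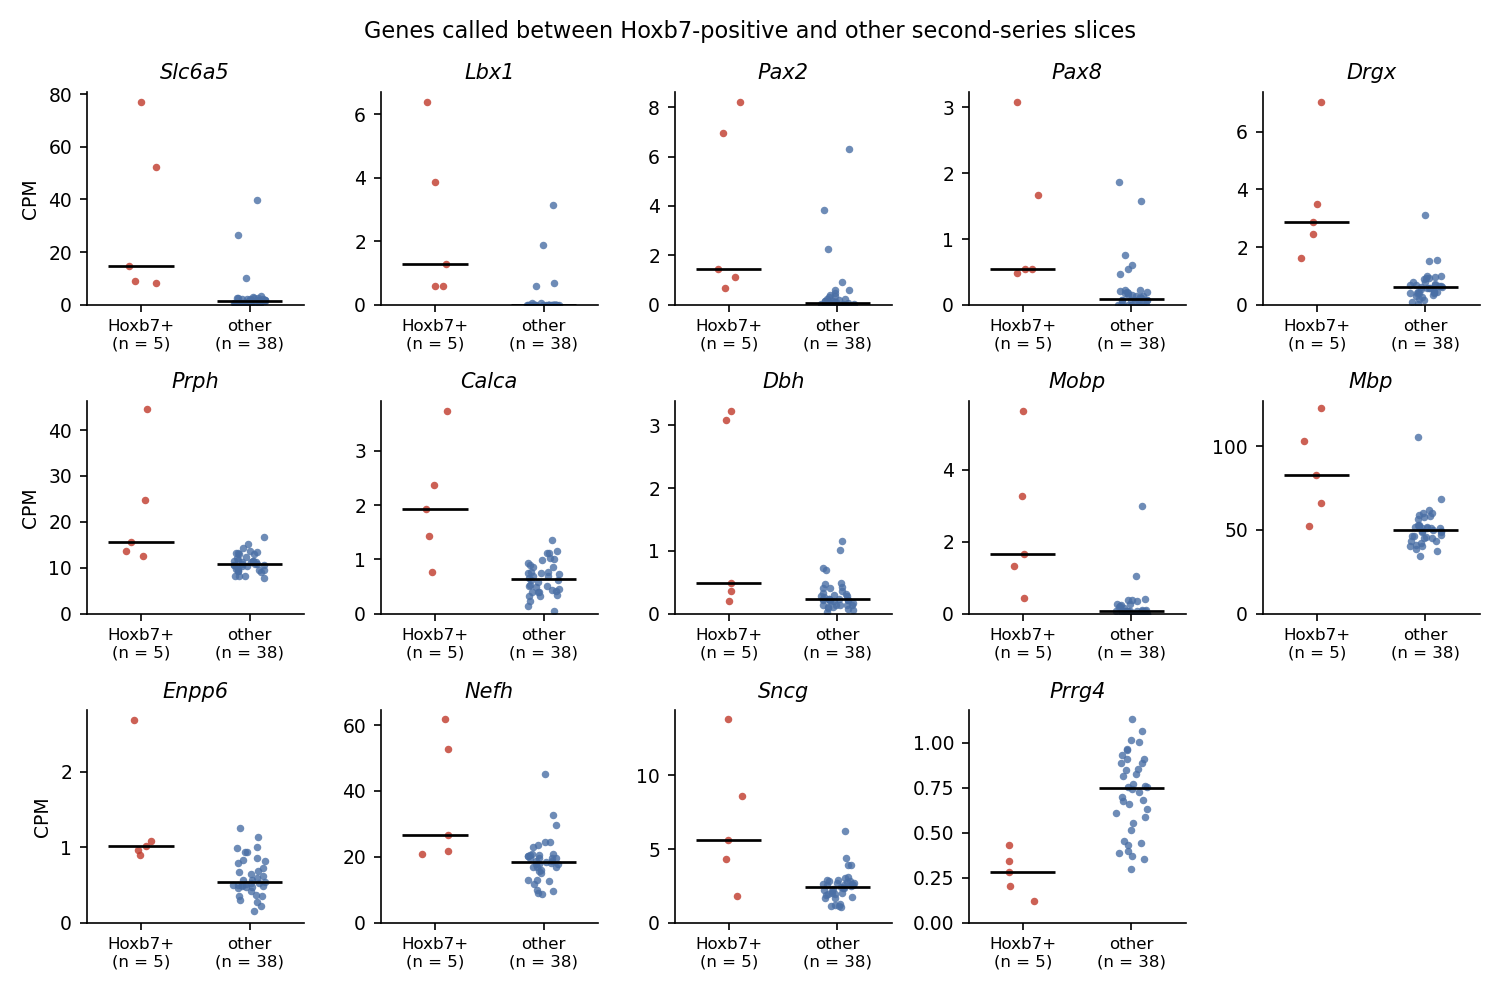
CPM of 13 of the 18 non-Hox genes called higher and of Prrg4, the gene called lower, in the 5 Hoxb7-positive slices (red) and the 38 other second-series slices (blue). Each point is 1 slice and each line a group median. In every panel at least 1 blue point overlaps the red ones, and for Slc6a5, Lbx1, Pax2 and Pax8 a pair of red points stands above the remaining 3.

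The remaining called genes belonged to none of the lists. The heavy neurofilament gene Nefh measured 61.9, 20.95, 21.8, 26.5 and 52.7 CPM against a median of 18.6 CPM (log2 fold change of 1.01 ± 0.22), and Sncg, the gamma-synuclein gene, measured 8.63, 5.60, 1.85, 4.36 and 13.8 CPM against a median of 2.44 CPM (1.47 ± 0.25). In LDHA/B+CRMP1+STIP1 replicate 4 Sncg was below the median of the others. Lamp5, Mab21l2 and Syt2, a synaptotagmin of fast synapses, had log2 fold changes of 1.83 ± 0.44, 1.84 ± 0.45 and 0.90 ± 0.22 at adjusted p of 0.0631, 0.0716 and 0.0867. Each of these 3 was lost without either of the slices rich in Hox RNA. Lamp5 was also not called with litter as a random effect (adjusted p = 0.269), and was higher in the positive slice of 1 of 3 litters. Nefh was not called without CRMP1+GDA replicate 4 (adjusted p = 0.927) or without LDHA/B+CRMP1+STIP1 replicate 6 (adjusted p = 0.462), nor Sncg without the latter (adjusted p = 0.1335).

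Tgoln2, of the trans-Golgi network, showed the smallest difference, at 108, 95.3, 86.9, 98.3 and 93.4 CPM against a median of 79.5 CPM (log2 fold change of 0.28 ± 0.07, adjusted p = 0.0527). It was lost when any of 4 of the 5 slices was left out, and reads may be shared with its close paralog. Prrg4, a vitamin K-dependent membrane protein gene, was the gene called lower, at 0.430, 0.120, 0.281, 0.343 and 0.204 CPM against 0.297 to 1.13 CPM (log2 fold change of -1.38 ± 0.29, adjusted p = 0.00978). These levels correspond to 12, 4, 7, 10 and 6 counts. Prrg4 was not called without CRMP1+GDA replicate 5 (adjusted p = 0.1134) or without LDHA/B+CRMP1+STIP1 replicate 6 (adjusted p = 0.1038). In the first of these fits the gene called lower was Fpgt, which lies in the shifted part of chromosome 2 in LDHA/B+CRMP1+STIP1 replicate 6.

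Counted slice by slice, the 18 genes showed the same unevenness as the Hox genes. CRMP1+GDA replicate 4 was above all 38 other slices in 18 of them and LDHA/B+CRMP1+STIP1 replicate 6 in 12, whereas CRMP1+GDA replicate 5 was above them in 1, LDHA/B+CRMP1+STIP1 replicate 5 in 2 and replicate 4 in 0. All 5 were above the median of the others in at least 17 of the 18. Since these genes were called with the same slices, the counts describe the calls and do not add to them.

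**Figure D4:**
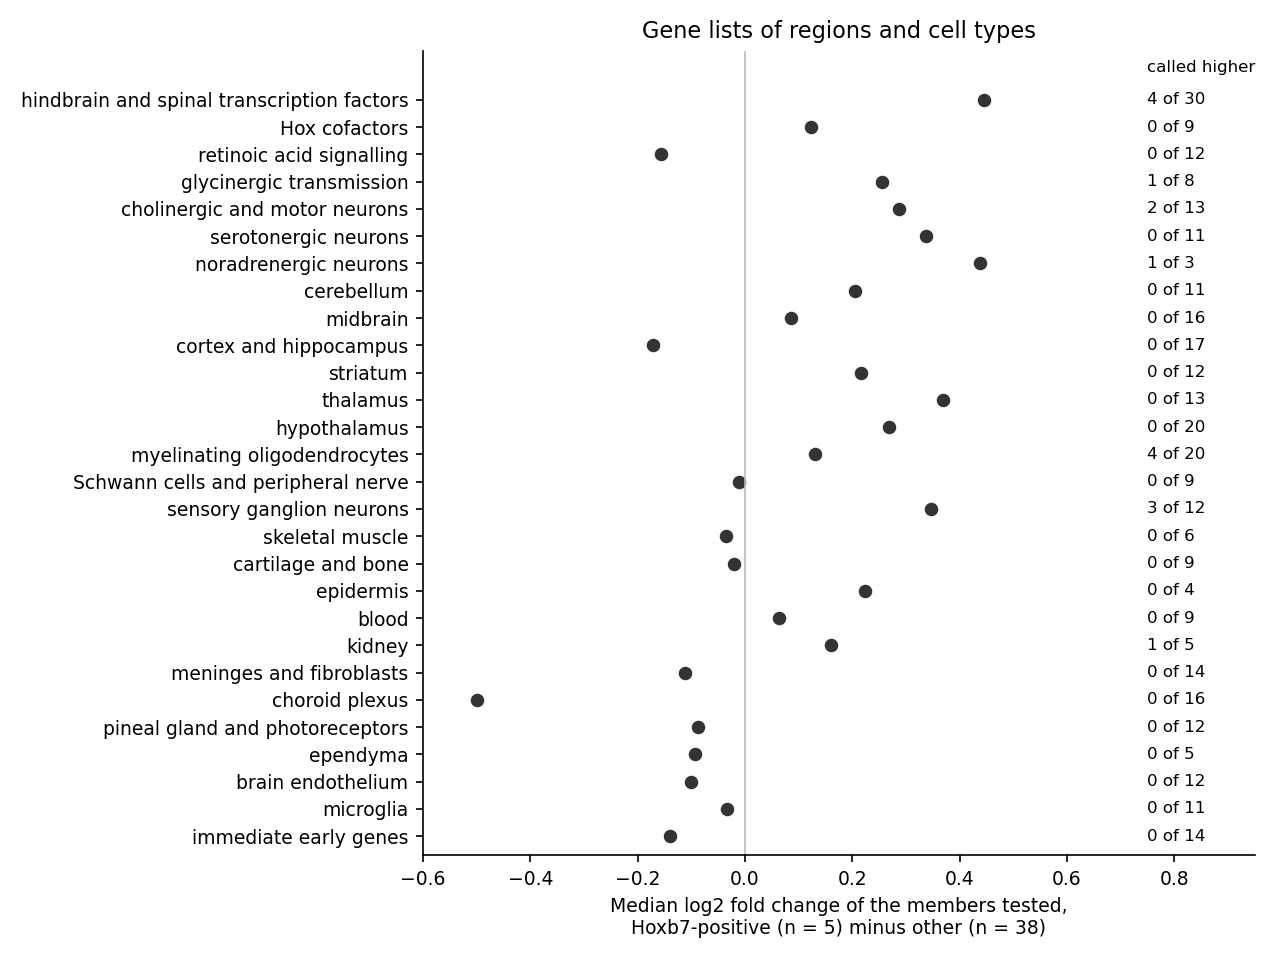
Median log2 fold change, Hoxb7-positive minus other slices, of the members tested in each of 28 gene lists of regions and cell types, with the number called higher of the number tested. List medians lie between -0.50 (choroid plexus) and 0.45 (hindbrain and spinal transcription factors), beside -0.0046 over all genes tested.

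Lists of other brain regions and tissues had few or no calls. None of the tested members of the cerebellum (11), midbrain (16), cortex and hippocampus (17), striatum (12), thalamus (13) or hypothalamus (20) lists was called in either direction, with 0, 1, 3, 1, 0 and 3 of them at an unadjusted p below 0.05. At that level 386 of all 12737 genes tested were higher and 269 lower. The cerebellar and midbrain gene En2 was at or below 0.359 CPM in all 5 slices, and Barhl1, a factor of cerebellar granule cells, lay between 0.720 and 10.5 CPM against 0.0659 to 22.3 CPM. The median log2 fold change was -0.17 for cortex and hippocampus and 0.37 for thalamus.

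Tissues around the brain were not called either, in the lists for skeletal muscle, cartilage and bone, epidermis, blood, meninges, choroid plexus, pineal gland, ependyma, brain endothelium and microglia, and 1 of 5 kidney genes was called (Pax8). The choroid plexus list had all 16 members at a negative fold change, with none at an unadjusted p below 0.05. Such a shared direction was not particular to that list. The meninges and immediate early gene lists each had 0 of 14 members at a positive fold change, and brain endothelium had 1 of 12. The choroid plexus marker Ttr measured 243, 1410, 606, 1110 and 352 CPM against 120 to 3114 CPM. Ttr was lowest in the 2 slices richest in Hox RNA, within the range of the others, and its part in the calls was not tested.

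The slices of the first series, outside the rule, included 1 with appreciable Hox RNA. Saline control replicate 2 of that series carried 88.7 CPM of groups 1 to 5, with 16.5 CPM of Hoxa5, 12.3 CPM of Slc6a5 and 0.658 CPM of Hoxb8. Its Hoxb8 was thus below that of each Hoxb7-positive slice, although its anterior Hox RNA exceeded that of 3 of them. The median of the first series was 0 CPM for groups 1 to 5.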

How the data were processed

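Each library was made from poly-A RNA of 1 coronal slice and sequenced with paired-end reads. Per the labels and methods, the authors aligned reads to rn7 with STAR 2.5.4b and deposited whole-number gene counts from featureCounts, not normalized, with the exon length of each gene (a value in bases). Strand-specific counting is not given in the sources used here. Most counts from 1 to 9 were even (74.5%), and halving the counts was therefore an alternative. All columns were matched to samples by title.

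CPM was the count divided by the library total, and RPKM also divided by exon length in kilobases. Libraries held 24880182 to 36234952 counts. Replicates are different animals, some of them littermates, so litter was tried as a random and as a fixed effect. All pairs among the 5 Hoxb7-positive libraries differed beyond sampling noise (chi-square of 14.8 to 70.5 per gene).

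Genes above 1 CPM in at least 2 of the 43 second-series libraries were tested (12737 of 17494) with edgeR 4.0.16 in R 4.3.3 (TMM, trended dispersion, robust quasi-likelihood F-test, sex as covariate, Benjamini-Hochberg adjusted p below 0.1), with Hoxb7 removed before adjustment. SE was the absolute log2 fold change divided by the square root of F. The fits were tested on simulated counts with the same dispersion for all genes and no litter effect. Only genes well above the filter were changed there, so low and uneven genes such as Lbx1 were not covered. Alternatives used DESeq2 1.42.0, limma 3.58.1 and sva 3.50.0. The first series was processed separately and entered no test.

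The split and the gene lists were chosen with earlier results of these data known. Genes named were all Hox genes except Hoxb7, called members and the leading members of each list, and the called genes of smallest p. The SE values include the variation between animals that the fit estimated, whereas the floor given for zero counts covers counting error only. Promoter sequences are from RefSeq (GRCr8), matched by symbol. A few genes of the lists are not reported here.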

Additional observations from a re-analysis of the deposited data

Results flagged for a closer look

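In 39 values looked at among the 5 Hoxb7-positive slices, the highest slice stood apart from the other 4 in 3, where the gap to its neighbour divided by the whole range exceeded Dixon's critical value of 0.71. Chance alone marks about 1 in 20 such groups. For Enpp6 the ratio was 0.892, with CRMP1+GDA replicate 4 at 2.69 CPM. For Hoxa6 it was 0.730, again with CRMP1+GDA replicate 4 at 3.55 CPM. For Phox2a it was 0.994, with LDHA/B+CRMP1+STIP1 replicate 6 at 67.9 CPM and the next slice at 0.430 CPM.

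In data that entered no comparison, saline control replicate 2 of the first series held 88.7 CPM of Hox paralog groups 1 to 5, above 3 of the 5 Hoxb7-positive slices and with a median of 0 CPM in its series.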

How the results depend on the processing

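Against 31 genes higher and 1 lower, the number called higher became 47 without the CPM filter (at least 10 counts in all), 16 with a mean of at least 1 CPM (none lower), 14 with DESeq2 and 51 with exposure group and sex in the model (12 lower). With the mean filter 13 of the 31 were not tested, 15 remained called and 278 genes were lower at an unadjusted p below 0.05. DESeq2 kept 13 of the 31 and 1 Hox gene, Hoxa3, among them. With the exposure groups that held a Hoxb7-positive slice alone, and exposure group and sex in the model, 32 genes were higher and 4 lower. That fit kept 25 of the 31, without Dbh, Enpp6, Lamp5, Mbp, Nefh and Sncg. Leaving out each Hoxb7-positive slice in turn gave 21 to 35 genes higher and 0 to 3 lower. Without the 2 slices richest in Hox RNA, 1 gene was higher and 0 lower. Settings added after seeing the data, without the other slices with Hox RNA and with slices of at least 300 CPM of Tcf7l2, gave 36 and 26 higher, and 1 lower each. RLE size factors, halved counts, thresholds of 0.25 and 1 CPM, no covariate, a surrogate variable and litter as a random effect gave 21 to 35 higher and 1 lower. None of the 19 non-Hox genes called changed sign in these fits, and other named genes were not followed across them. The cause of each change in the counts was not tested.

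No paired analysis was possible because of the serial replicate numbers, which pair no samples. Litter does pair some slices. As a random effect it left 29 of the 31 called, without Dbh and Lamp5, and as a fixed term, added after seeing the data, it left 0 higher and 0 lower. With 5 slices from 4 litters, 3 of them low in Hox RNA, the calls describe these slices.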

Other observations

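Phox2a (chr1:156178754-156183118 in rn7), a homeodomain factor of noradrenergic and visceral motor neurons, was counted 2003 times in LDHA/B+CRMP1+STIP1 replicate 6 (67.9 CPM). The highest count in the other 70 libraries was 24 (0.864 CPM), and the littermate, replicate 5, was at 0.0686 CPM. The gene exceeded 1 CPM in this slice alone and so was not tested. Dbh, a gene of the same neurons, was at 3.09 CPM in this slice, and at 3.22 CPM in CRMP1+GDA replicate 4, where Phox2a was at 0.430 CPM.

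The same library differed from the other 42 of the second series over stretches of chromosome. For each gene with a mean of at least 5 CPM, log2(CPM + 0.5) was set against the gene's median over the 43 libraries, and medians were taken over windows of 10 Mb with at least 12 genes, a procedure chosen after seeing the data. Of 242 windows, 3 had a median beyond 0.5 in any library, and each of the 3 was in LDHA/B+CRMP1+STIP1 replicate 6.

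In the first window of chromosome 1, 25 of 25 genes were above their median (starts from 2079604 to 9032871, window median 0.60), among them Aig1, Epm2a, Pcmt1 and Utrn. In the next window, 15 of 16 were above it (12312426 to 19323997, window median 0.57), among them Cited2, Hbs1l and Reps1. In the last window of chromosome 2, 23 of 23 genes were below it (240354941 to 248931910, window median -0.88), among them Acadm, Fubp1, Usp33 and Negr1. The littermate had window medians of 0.04, -0.08 and 0.0049, and the largest absolute window median in the other 42 libraries was 0.34. No gene called in the main fit lies in these windows, nor does Phox2a. DNA copy number was not measured, and the genes in these paragraphs other than Phox2a and Dbh were chosen after their values were seen.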
